A study of Mus musculus with 12 samples.

Results

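The ductular genes Cldn4, Ehf, Cd24a, Cdh3 and Cftr carried 6 m6A peaks, out of 7460 merged peaks in the mouse liver, and the 5 genes stand among 4434 genes that had at least 1 peak of their own. They were picked by gene symbol after their reads in bile duct ligated and control livers were known, so the difference between those groups is given for them as a description, with no test. None of the 6 peaks was shared with another annotated gene. In the deposited table the genes are ENSMUSG00000047501 (Cldn4), ENSMUSG00000012350 (Ehf), ENSMUSG00000047139 (Cd24a), ENSMUSG00000061048 (Cdh3) and ENSMUSG00000041301 (Cftr). All 6 peaks and all 5 genes passed the filter on low counts, which a gene high in 1 group passes through that group alone.

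When bile flow is blocked, the epithelium that lines bile ducts expands and new ductules form at the edge of the portal tracts, a response called the ductular reaction. The cells of these ductules keep the machinery of a secreting epithelium: junction proteins that seal and hold neighbouring cells, ion channels that drive fluid into bile, and transcription factors of the epithelial state. Cldn4 encodes claudin-4, a tight junction protein, and Cdh3 encodes P-cadherin, a calcium-dependent adhesion protein. Ehf encodes a transcription factor of the ETS family found in epithelia. Cd24a encodes a small, heavily glycosylated surface protein that is also known on B cells, neutrophils and red cell precursors. Cftr encodes the cyclic AMP-regulated chloride channel of the bile duct cell, which drives bicarbonate-rich secretion. N6-methyladenosine (m6A) is a methyl mark on adenosines of mRNA that is often found near the stop codon and in the 3' part of transcripts.

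The study compared fibrotic livers of mice after bile duct ligation (BDL), an operation that closes the common bile duct, with livers of normal mice. All animals were male C57BL/6 mice aged 12 weeks, and the labels name no sham operation for the controls. RNA fragments were pulled down with an m6A antibody (IP), and 3 BDL and 3 control IP libraries were analysed. The input libraries, made without the antibody, were not analysed here. A difference in IP reads therefore mixes transcript level with methylation, and in whole liver more cells of a type and more RNA per cell cannot be told apart. The labels number the samples without saying that each is a separate mouse, so the spread behind each p-value may be technical.

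The BDL libraries held 20540863 to 35691860 reads in peaks and the control libraries 15254737 to 19378332. Levels are given as CPM, reads per 1000000 reads in peaks after TMM scaling of the libraries. Peaks listed at 0 outnumbered those with 1 to 20 reads in every library, by 422 to 454 against 50 to 60 in BDL and by 721 to 957 against 135 to 156 in control. Whether a listed 0 is a counted 0 was not tested. Bounds and intervals given below cover counting error only and hold only if it is.

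Cldn4 had by far the most reads of the 5 genes in BDL livers. Its peak held 20717, 48833 and 46514 reads in the BDL libraries, against 19, 254 and 306 in the control libraries. These are 929.8, 1225 and 1501 CPM in BDL and 1.38, 15.3 and 17.2 CPM in control. Every BDL library lay at least 53.96-fold above the highest control library, and control replicate 1 lay well below the other two. The mean was 1219 ± 286 CPM in BDL and 11.3 ± 8.65 CPM in control (SD, n = 3 each), a log2 change of 6.74 (SE 0.83). The peak ranked 122, 83 and 62 among the 7460 peaks by reads in the BDL libraries and 6358, 4566 and 4319 in the control libraries.

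The Cldn4 peak also differed in shape from the others. It was 650 bases wide (chromosome 5, 134945419 to 134946068), where the median peak had 175 bases and 90% of peaks had at most 250. Cldn4 is a short gene, with a listed span of 1816 bases on the minus strand, and the peak covered 35.8% of it, ending 300 bases before the 3' end of the gene. The promoter of Cldn4, from 250 bases before to 50 bases after the gene start in RefSeq (GRCm38.p6, chr5:134946885-134947184, minus strand), is shown because Cldn4 had the largest IP change of the 5 genes. Capitals mark each match to TGANTCA, the AP-1 motif bound by Fos and Jun proteins, searched on both strands of this palindrome.
Cldn4 promoter: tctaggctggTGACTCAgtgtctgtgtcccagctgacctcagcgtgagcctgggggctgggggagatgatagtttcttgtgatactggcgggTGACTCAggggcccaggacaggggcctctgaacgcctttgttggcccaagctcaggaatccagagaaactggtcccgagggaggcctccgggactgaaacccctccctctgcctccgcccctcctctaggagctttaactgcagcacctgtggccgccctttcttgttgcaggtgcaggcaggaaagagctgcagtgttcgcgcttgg
The 2 matches start 240 and 158 bases before the gene start. Of 32851 RefSeq promoters of the same length, 7.81% held at least 1 match and 0.46% at least 2. No match was found in this window to GGAATG (TEAD), GGAAGT (ETS) or ACAATG (SOX), which 14.7%, 23.8% and 12.6% of promoters hold on either strand. A match is a run of letters and not a measured binding site.

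**Figure D1:**
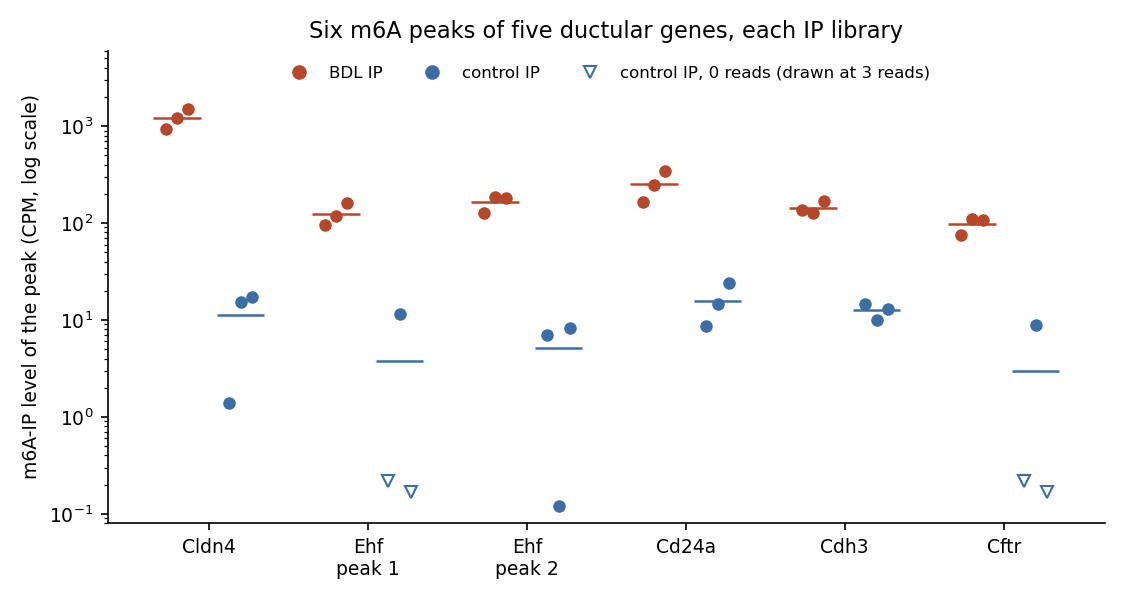
IP level of the 6 peaks in CPM (log scale) in each of 3 BDL (red) and 3 control (blue) libraries. Circles are libraries, lines are group means, and open triangles are control libraries with 0 reads, drawn at 3 reads. Every BDL point lies above every control point of its peak, and 2 of the 3 control points of Ehf peak 1 and of Cftr had no reads.

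Ehf had 2 peaks of 200 bases each, in the last part of the gene on the minus strand of chromosome 2. Peak 1 (103266583 to 103266782) ended 3150 bases and peak 2 (103264158 to 103264357) 725 bases before the 3' end of the gene. Peak 1 held 2128, 4676 and 4968 reads in BDL livers, against 0, 189 and 0 in control livers. Peak 2 held 2814, 7448 and 5682 reads in BDL livers, against 97, 2 and 148 in control livers. Both were high in all BDL libraries, while each control library had 1 of the 2 peaks and lacked or nearly lacked the other. In CPM, peak 1 averaged 124.4 ± 33.0 in BDL and 3.80 ± 6.58 in control (SD, n = 3 each; log2 change 5.02, SE 1.61), and peak 2 averaged 165.5 ± 34.0 in BDL and 5.17 ± 4.42 in control (log2 change 5.0, SE 1.01).

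Peak 2 took 56.9% of the Ehf reads in BDL replicate 1 (95% Clopper-Pearson interval 55.5 to 58.3%), 61.4% in replicate 2 (60.6 to 62.3%) and 53.4% in replicate 3 (52.4 to 54.3%). In control its share was 100% of 97 reads in replicate 1 (96.3 to 100%), 1.05% of 191 in replicate 2 (0.127 to 3.73%) and 100% of 148 in replicate 3 (97.5 to 100%). The BDL shares lay close together, although further apart than their counting intervals, and the control shares lay at the extremes. The sum over both peaks was 4942, 12124 and 10650 reads in BDL livers, or 287.9 ± 62.0 CPM, against 97, 191 and 148 reads in control livers, or 9.02 ± 2.26 CPM (SD, n = 3 each). It varied less among control libraries than either peak did. The summed log2 change was 4.99, with an SE of 0.30 where the single peaks had 1.61 and 1.01.

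**Figure D2:**
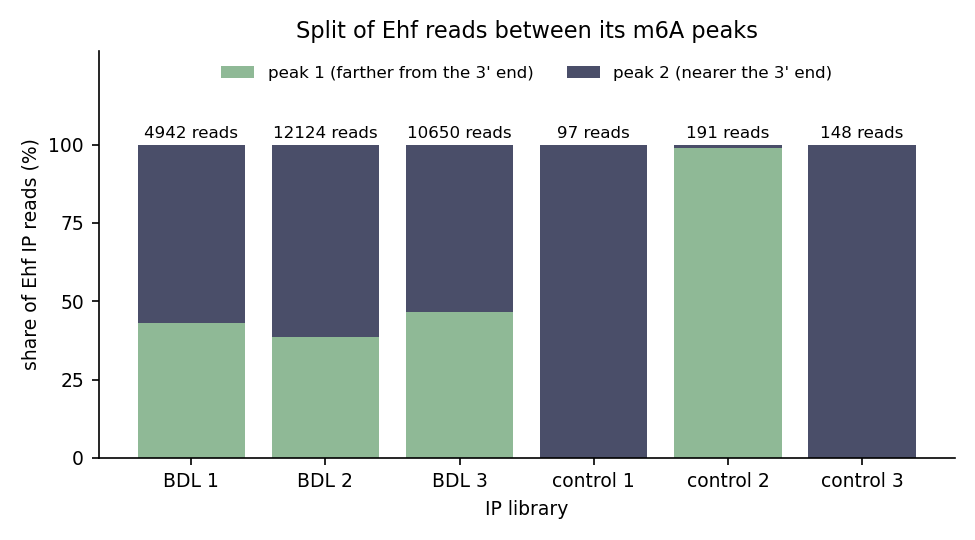
Share of the Ehf IP reads (%) in peak 1 (green) and peak 2 (dark) in each BDL and control library, with the reads of both peaks above each bar. In BDL peak 2 took 53.4 to 61.4% of reads, and in control it took 100%, 1.05% and 100%.

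Cd24a, the surface glycoprotein gene, had 1 peak of 175 bases (chromosome 10, 43583031 to 43583205, plus strand), with 3706, 9952 and 10688 reads in BDL livers, against 118, 241 and 427 in control livers. The mean was 253.6 ± 89.4 CPM in BDL and 15.7 ± 7.80 CPM in control (SD, n = 3 each), a log2 change of 4.01 (SE 0.45). It was the most variable of the 5 genes among BDL libraries, where the highest was 2.08 times the lowest, against 1.33 to 1.62 for the other four. The mouse genome holds further copies related to Cd24a, and how reads from near-identical copies were counted is not given, so the level is uncertain. Because Cd24a is also known from blood cells, their markers were looked at beside it. Of 9 listed neutrophil genes, 2 were tested and none passed edgeR (1 had an unadjusted p under 0.05, 1 passed DESeq2, and 1 passed without control replicate 1), with a summed level of 38.96 to 46.86 CPM in BDL and 7.60 to 16.2 CPM in control. Of 8 listed B and plasma cell genes, 2 were tested and none passed edgeR or DESeq2 or had an unadjusted p under 0.05, at 23.2 to 31.3 CPM in BDL and 12.8 to 15.3 CPM in control. Of 8 listed erythroid genes, only Klf1 was tested, at 0.322 to 9.23 CPM in BDL and 6.30 to 10.04 CPM in control. The part of these cells in the Cd24a reads was not tested.

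Cdh3, the P-cadherin gene, had 1 peak of 200 bases (chromosome 8, 106555539 to 106555738, plus strand), 1559 bases before the 3' end of the gene. It held 3023, 5115 and 5241 reads in BDL livers, against 203, 167 and 230 in control livers. It was the steadiest member, at 144.4 ± 21.8 CPM in BDL and 12.6 ± 2.38 CPM in control (SD, n = 3 each). The log2 change was 3.52 (SE 0.28), the smallest of the 5 genes, and the control libraries lay close together.

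Cftr, the chloride channel gene, had 1 peak of 175 bases (chromosome 6, 18321310 to 18321484, plus strand), at 99.1% of a gene span of 152082 bases. It held 1664, 4427 and 3315 reads in BDL livers, against 0, 148 and 0 in control livers. All BDL libraries were high, and control replicate 2 was the only control library with reads. The mean was 97.6 ± 19.9 CPM in BDL and 2.97 ± 5.15 CPM in control (SD, n = 3 each), a log2 change of 5.03 (SE 1.60). Set against control replicate 2 alone, the BDL mean was 10.9-fold higher. Set against a floor of 3 reads per library in the 2 controls without reads, it was at least 447-fold higher. Ehf peak 1, with the same 2 empty control libraries, gave 10.9-fold and at least 570-fold. Of 6206 peaks wider than 75 bases, 44 (0.709%) had no reads in 2 control libraries and at least 100 in the other, among them these 2. In 17 of the 44 the library with reads was replicate 2, and the same pattern among BDL libraries was seen at 18 peaks (0.29%). The Cftr promoter is shown for comparison with that of Cldn4 (RefSeq, GRCm38.p6, chr6:18170437-18170736, plus strand, same window). It has no capitals because none of these motifs was found in it on either strand.
Cftr promoter: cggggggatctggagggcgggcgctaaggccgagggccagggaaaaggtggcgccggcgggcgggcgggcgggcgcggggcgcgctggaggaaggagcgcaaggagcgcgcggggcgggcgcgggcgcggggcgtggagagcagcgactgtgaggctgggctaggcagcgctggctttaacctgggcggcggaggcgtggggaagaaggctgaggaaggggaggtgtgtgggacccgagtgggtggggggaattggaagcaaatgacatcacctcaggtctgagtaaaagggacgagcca
The Cftr promoter had 71.3% G and C and 31 CG pairs, and the Cldn4 promoter 61.0% and 9, against medians of 52.7% and 7 over all promoters. Ehf, Cd24a and Cdh3 promoters are not shown.

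In all 6 peaks every BDL library lay above every control library. Over all 7083 tested peaks, 20.6% had the groups apart in this direction and 37.4% in either direction, and over all 4306 tested genes 21.6% and 38.9%. By edgeR, 9.16% of the tested peaks passed an adjusted p of 0.05, 4.62% higher and 4.55% lower in BDL. These shares describe the whole table, and nothing is read from them about the 5 genes, which this contrast picked. The lowest BDL library was 6.92-fold (Cd24a) to 53.96-fold (Cldn4) above the highest control library. By log2 change, Cldn4 was place 83, Cftr 96, Ehf 97, Cd24a 126 and Cdh3 145 of 4306 tested genes, whose median was 0.03.

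**Figure D3:**
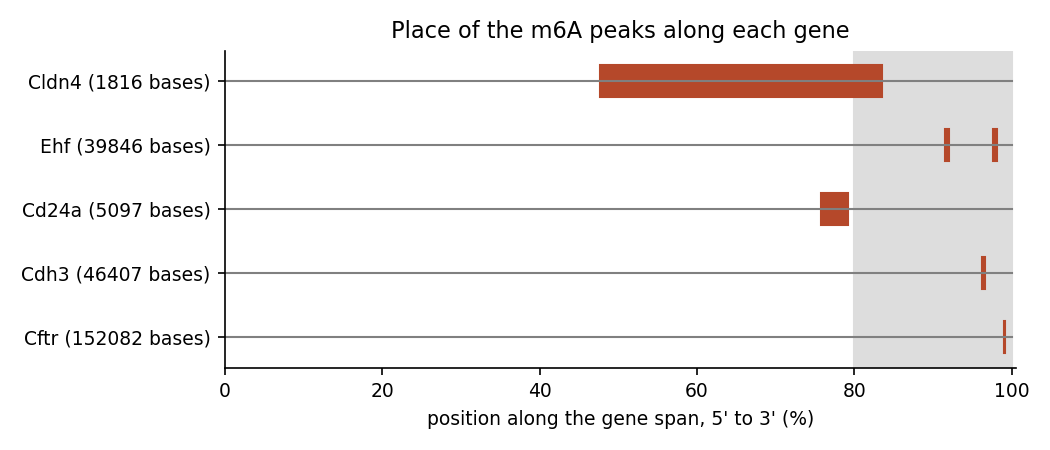
Place of the 6 peaks along the listed gene spans, from the 5' end (0%) to the 3' end (100%), with the last 20% shaded. Bar width is the share of the span covered, which is 35.8% for Cldn4. The peaks of Ehf, Cdh3 and Cftr lie in the shaded part, and the centres of the Cldn4 and Cd24a peaks lie before it.

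By centre, 4 of the 6 peaks fell within the final 20% of their gene, as did 64.4% of the 6474 peaks of single genes. Ehf peak 1 lay at 91.8%, Ehf peak 2 at 97.9%, Cdh3 at 96.4% and Cftr at 99.1% of the span. The peaks of the 2 short genes, Cldn4 at 65.6% and Cd24a at 77.5%, lay before it. Having 1 peak, as 4 of the 5 genes did, was common: 68.5% of all genes with a peak of their own had 1.

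Per kilobase of peak, and with libraries scaled over genes, the order of levels in BDL was Cldn4, Cd24a, Ehf, Cdh3 and Cftr. The means were 1863 ± 440 CPM per kb for Cldn4, 1440 ± 511 for Cd24a, 719.9 ± 155 for Ehf, 717.4 ± 112 for Cdh3 and 553.7 ± 112 for Cftr (SD, n = 3 each). Cldn4 and Cd24a overlapped in range, although Cldn4 was higher in each of the 3 libraries, and so did Ehf and Cdh3, where Ehf was higher in 2 of 3. Cd24a and Ehf, and Cdh3 and Cftr, were apart. In control the order was another one, with Cd24a at 90.2 ± 44.1, Cdh3 at 63.5 ± 12.4, Ehf at 22.6 ± 5.66, Cldn4 at 17.4 ± 13.3 and Cftr at 17.05 ± 29.5 CPM per kb. There, Cdh3 and Ehf were the only neighbours in the order whose ranges did not overlap. Cldn4 led the order in BDL and came next to last in control. The level reflects transcript amount and IP yield together.

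The 5 genes took 0.166%, 0.225% and 0.286% of all reads in peaks in BDL replicates 1 to 3, against 0.00286%, 0.0052% and 0.00573% in control replicates 1 to 3. Within the BDL group, replicate 1 was lowest for Cldn4, Ehf, Cd24a and Cftr and replicate 2 for Cdh3. Replicate 1 was lowest for 35.5% of all tested genes. Cldn4 alone held 60.8%, 60.7% and 60.9% of the reads of the 5 genes in the BDL libraries, and 4.35%, 25.4% and 27.5% in the control libraries. Its share hardly moved between BDL libraries while the level of the whole group did. The coefficient of variation among BDL libraries was 23.6% for Cldn4, 21.5% for Ehf, 35.5% for Cd24a, 15.6% for Cdh3 and 20.2% for Cftr, around the median of 23.9% of all tested genes.

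Over the 6 libraries, Pearson's r of log2 CPM between the genes was 0.83 (Cdh3 and Cftr) to 0.98 (Cldn4 and Cd24a). All 6 points carry the contrast that picked the genes, so these values describe the choice. By the same measure the genes closest to Cldn4 were Fut2 (r = 0.9991), a fucosyltransferase, and Pde4d (0.9973), a cyclic AMP phosphodiesterase. Sema3f (0.9993), a secreted guidance protein, and Pdgfb (0.9962), a growth factor chain, were closest to Ehf. Slc25a24 (0.998), a mitochondrial carrier, and Ifngr1 (0.9973), an interferon gamma receptor chain, were closest to Cd24a. Dusp14 (0.997), a phosphatase, and Cdcp1 (0.997), a surface protein of epithelial cells, were closest to Cdh3. Epn3 (0.998), an endocytosis adaptor, and Adcy7 (0.9964), an adenylyl cyclase, were closest to Cftr. Epn3 and Adcy7 had the same split controls as Cftr, each with 33 reads in control replicate 2 and none in the other control libraries. Between 73 and 186 of the 4228 genes searched, or 1.73 to 4.4%, reached an r above 0.95 with a given member.

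Neighbours were taken among genes with a peak of their own, with predicted genes (Gm, Rik) left out. Cldn4 and Cdh3 each have a relative as the nearest such gene on 1 side, and neither relative passed. Cldn3 encodes another claudin of bile duct epithelium and lies 39279 bases from Cldn4. It held 1942, 4698 and 4308 reads in BDL livers, against 1815, 1292 and 2703 in control livers, and the groups overlapped in CPM. Its mean was 113.9 ± 26.1 CPM in BDL and 121.6 ± 38.7 CPM in control (SD, n = 3 each), and the log2 difference was -0.09 (SE 0.30, edgeR adjusted p = 0.869). The sign of the Cldn3 value turned with library totals alone (0.25), without BDL replicate 1 (0.07) and without control replicate 3 (0.10). Both Cldn3 peaks were only 50 bases wide. Per base of peak, the Cldn4 level was 1.64, 1.60 and 1.66 times that of Cldn3 in the BDL libraries, and 0.00161, 0.0302 and 0.0174 times in the control libraries.

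Cdh1 encodes E-cadherin, the main adhesion protein of hepatocytes and duct cells, and lies 46053 bases from Cdh3. Cdh1 held 2010, 4697 and 5419 reads in BDL livers, against 1616, 2200 and 2124 in control livers. The mean was 126.9 ± 43.4 CPM in BDL and 124.1 ± 7.75 CPM in control (SD, n = 3 each), with a log2 difference of 0.03 (SE 0.26, edgeR adjusted p = 0.951), which turned to -0.27 without BDL replicate 3. Per base of peak, Cdh3 was at 2.44, 1.77 and 1.57 times the level of Cdh1 in the BDL libraries, and at 0.204, 0.123 and 0.176 times in the control libraries. Per base of peak, the lower of the 2 cadherin genes in control livers was thus the higher one in BDL livers. In CPM without regard to width, Cdh3 was above Cdh1 in BDL replicate 1 (135.1 against 89.8) and replicate 2 (126.6 against 116.2). It was below Cdh1 in BDL replicate 3 (168.8 against 174.5). The ratios per base use the contrast that picked Cldn4 and Cdh3 and are given without a test.

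**Figure D4:**
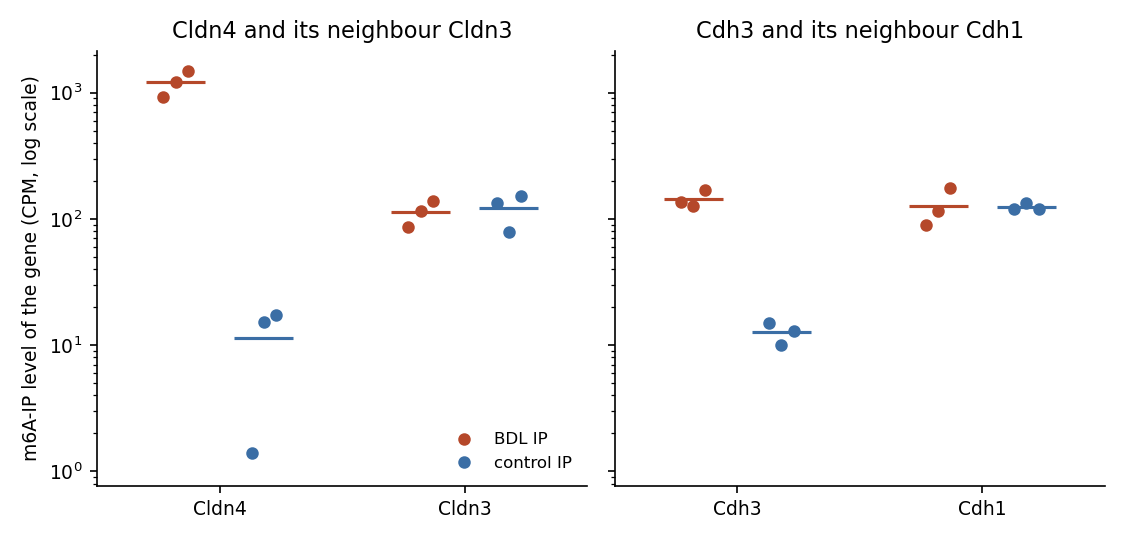
IP level in CPM (log scale) of Cldn4 with its chromosomal neighbour Cldn3 (left) and of Cdh3 with its neighbour Cdh1 (right). Circles are libraries and lines are group means, BDL in red and control in blue. Cldn4 and Cdh3 are apart between the groups, while Cldn3 averaged 113.9 CPM in BDL and 121.6 CPM in control, and Cdh1 averaged 126.9 CPM in BDL and 124.1 CPM in control.

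By the same rule, the nearest genes on the other sides were mixed. On the other side of Cdh3, Zfp90, a zinc finger gene, rose, with 911, 2130 and 2784 reads in BDL livers against 30, 153 and 201 in control livers (log2 3.002, SE 0.63, edgeR adjusted p = 0.0152, and 0.0805 without BDL replicate 3). Both neighbours of Cftr fell, Wnt2 at a distance of 140101 bases and Tspan12 at 3448626 bases. Wnt2, a Wnt ligand known from liver endothelium, had a mean of 59.1 ± 13.0 CPM in BDL and 165.3 ± 17.7 CPM in control (log2 -1.48, SE 0.24, edgeR adjusted p = 0.00508), and Tspan12 fell by 0.80 on the log2 scale (SE 0.23, edgeR adjusted p = 0.047), a call lost in each fit without 1 library (up to 0.133). Abtb2 beside Ehf (log2 0.49, SE 0.22) and Bend3 (-0.37, SE 0.50) and Qrsl1 (0.41, SE 0.71) on the sides of Cd24a did not pass (edgeR adjusted p = 0.193, 0.682 and 0.759). Eif4h beside Cldn4 and Pdhx beside Ehf had too few reads to be tested.

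Most tested genes of 6 further lists did not pass, nor did most of all tested genes. They are called epithelial lists here, although those made by gene family also hold genes of other cells, such as Cdh5 and Cdh11. In these lists of duct, junction, cadherin, secretion and ETS genes, 52 of 118 genes were tested, 6 rose and 2 fell. These are 11.5% and 3.85%, against 8.20% and 6.55% over all 4306 tested genes, of which 14.7% passed in all (edgeR quasi-likelihood test, Benjamini-Hochberg). The median log2 change of the 52 genes was 0.55, against 0.03 over all tested genes. The count that rose was 3 without BDL replicate 3 (Ccn2, F11r and Sox4), 11 without control replicate 1 and 13 with library totals alone, and the count that fell was 1 in each of these fits and without BDL replicate 2 or control replicate 2 (Yap1).

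Of 25 further bile duct genes, 7 were tested and St14 was the only one to pass. St14, which encodes the epithelial surface protease matriptase, held 3080, 8154 and 6790 reads in BDL livers against 571, 219 and 137 in control livers. Its level was 186.0 ± 42.8 CPM in BDL and 21.1 ± 18.6 CPM in control (SD, n = 3 each), a log2 change of 3.15 (SE 0.60, edgeR adjusted p = 0.0112, and 0.0512 without BDL replicate 3). For Sox9, a transcription factor of duct cells, the log2 difference was 1.94 (SE 0.74, edgeR adjusted p = 0.126). Its control libraries held 289, 74 and 50 reads, and it passed without control replicate 1 (0.00644). Pkhd1, the fibrocystin gene of duct cilia, stood at log2 1.18 (SE 1.11, edgeR adjusted p = 0.546). Ceruloplasmin gene Cp, which was listed but is not particular to duct cells, had 0.66 (SE 0.27, edgeR adjusted p = 0.156). The keratin gene Krt18 had too few reads to be tested. The defining duct markers Krt7, Krt19, Epcam and Spp1 were not analysed here, so the duct cell label of the 5 genes was checked against few markers.

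Some duct genes had only peaks that overlap another gene, whose reads cannot be told apart, and were fitted once such peaks were included. Elf3, an epithelial ETS factor related to Ehf, was high in each BDL library, with 2730, 7754 and 8088 reads, against 497, 172 and 154 in the control libraries (log2 3.37, SE 0.59, edgeR adjusted p = 0.0083). For Bicc1 the libraries held 431, 1381 and 989 reads in BDL and 0, 0 and 76 in control, which did not pass (edgeR adjusted p = 0.141), nor did Onecut1 at log2 -2.19 (SE 0.64, edgeR adjusted p = 0.0561).

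None of the 11 other ETS genes with a peak of their own passed edgeR, nor did any pass with DESeq2, and 0 had an unadjusted p under 0.05. The log2 difference was 0.35 for Elf2 (SE 0.17), -1.39 for Elf1 (SE 0.67), 0.56 for Erf (SE 0.29) and 2.90 for Fli1 (SE 1.97), with edgeR adjusted p = 0.217, 0.223, 0.262 and 0.388. With library totals alone, Elf2 passed (0.0212), and Fli1 passed without control replicate 2 (0.0238).

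Among regulators of the duct state, Sox4 and Ccn2 rose and Yap1 fell, 3 of 12 tested out of 25 listed. Sox4, a transcription factor of progenitor cells, was at 64.7 ± 19.2 CPM over 5 peaks in BDL and 3.66 ± 3.13 CPM in control (SD, n = 3 each; log2 4.14, SE 0.65, edgeR adjusted p = 0.00488). Ccn2, a matricellular protein and known Yap target, had a log2 change of 2.79 (SE 0.29, edgeR adjusted p = 0.00068). Yap1, the Hippo pathway coactivator, was at 585.1 ± 27.9 CPM in BDL and 1064 ± 74.6 CPM in control (SD, n = 3 each; log2 -0.86, SE 0.14, edgeR adjusted p = 0.00578). Ccn1, related to Ccn2, stood at log2 1.18 (SE 0.34) and just missed the threshold (edgeR adjusted p = 0.0504), as did the Notch target Hes1 with 1.36 (SE 0.39, 0.0533). Both passed with DESeq2 and with library totals alone.

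Of 13 tested claudin and tight junction genes out of 20 listed, F11r and Ocln rose and Cldn1 fell. F11r, the junctional adhesion molecule A gene, was at 543.8 ± 45.8 CPM in BDL and 241.4 ± 24.8 CPM in control (SD, n = 3 each; log2 1.17, SE 0.16, edgeR adjusted p = 0.00253). Occludin gene Ocln rose by 0.73 on the log2 scale (SE 0.17, edgeR adjusted p = 0.0224). The Ocln call was lost without BDL replicate 2, BDL replicate 3 or control replicate 2 (up to 0.0973). Cldn1, a claudin of hepatocytes and ducts, was at 458.6 ± 50.2 CPM in BDL and 817.5 ± 198.5 CPM in control (SD, n = 3 each; log2 -0.83, SE 0.21, edgeR adjusted p = 0.0287). The Cldn1 call was lost in 5 of the 6 fits without 1 library, all but that without control replicate 3 (up to 0.105), and with library totals alone (0.148).

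Of 6 tested cadherin and catenin genes out of 15 listed, Dsp, the desmoplakin gene of desmosomes, rose by 1.40 on the log2 scale (SE 0.38, edgeR adjusted p = 0.0394). The call was lost in each fit without 1 library (0.0585 to 0.158). Cdh6, a cadherin of kidney and duct epithelium, held 576, 3388 and 1522 reads in BDL livers, against 0, 0 and 76 in control livers (log2 5.19, SE 1.62, edgeR adjusted p = 0.0704). It passed without control replicate 3 (0.0022). Cdh5, the endothelial cadherin gene, had 0.68 (SE 0.24, edgeR adjusted p = 0.0946) and Cdh11, a fibroblast cadherin gene, 2.83 (SE 1.25, 0.187).

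None of the 6 tested genes of fluid and bicarbonate secretion passed edgeR or DESeq2, and 0 had an unadjusted p under 0.05, out of 18 listed. Kcnn4, a potassium channel gene, stood at log2 2.92 (SE 1.91, edgeR adjusted p = 0.369), with 294, 445 and 730 reads in BDL livers against 85, 0 and 0 in control livers. It passed without control replicate 1 (0.00516). Slc12a2, the sodium, potassium and chloride cotransporter gene, had 0.73 (SE 0.53), Adcy6, an adenylyl cyclase gene, 0.20 (SE 0.23), and the purine receptor gene P2ry2 0.23 (SE 0.28), with edgeR adjusted p = 0.414, 0.623 and 0.657.

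**Figure D5:**
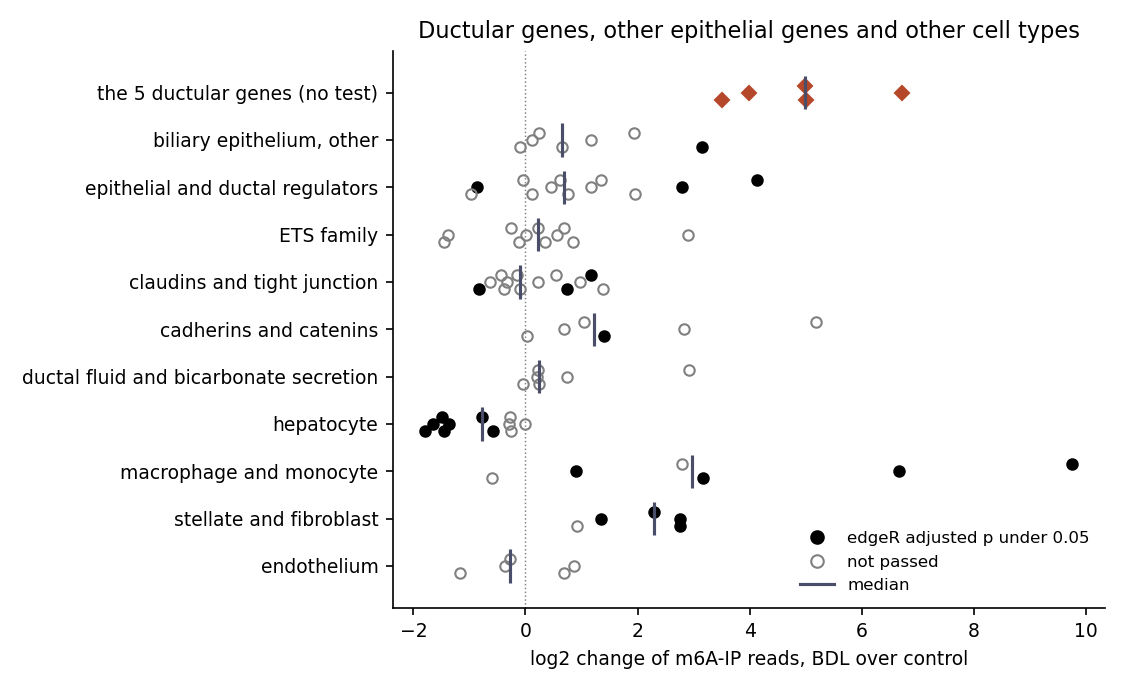
Log2 change of gene-level IP reads, BDL over control, for the 5 ductular genes (red diamonds, no test) and for tested genes of 10 lists (circles, filled where edgeR adjusted p was under 0.05). Vertical bars are medians. The 5 genes lie from 3.50 to 6.73, the medians of the 6 epithelial lists lie from -0.09 to 1.22, and the hepatocyte list lies at or below 0.

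Markers of other cells differed in direction, with some lists higher in BDL, the hepatocyte list lower and the endothelial list without a call. Of 11 tested hepatocyte genes, 7 fell and none rose (4 fell without BDL replicate 2, BDL replicate 3 or control replicate 2), with a summed level of 28800 to 33790 CPM in BDL and 71400 to 76900 CPM in control. Crp, an acute-phase protein gene, fell by 1.45 on the log2 scale (SE 0.14, edgeR adjusted p = 0.000459), and the apolipoprotein gene Apoa2 fell by 1.66 (SE 0.18, edgeR adjusted p = 0.000833). Of 6 tested macrophage genes 4 rose (2 without BDL replicate 2 or 3), among them Gpnmb, a lysosomal glycoprotein gene (log2 9.76, SE 0.38, edgeR adjusted p = 2.07e-06), with a summed level of 4740 to 5752 CPM in BDL and 1501 to 2536 CPM in control. Of 5 tested stellate cell and fibroblast genes 4 rose (2 without BDL replicate 2 or 3), among them the collagen gene Col5a2 (log2 2.76, SE 0.27, edgeR adjusted p = 0.000612). The summed level of the stellate genes was 538.7 to 882.4 CPM in BDL and 173.8 to 261.9 CPM in control. Of 7 listed mesothelial genes Wt1 alone was tested and rose, with 115, 480 and 296 reads in BDL livers against 0, 2 and 0 in control livers (edgeR adjusted p = 0.0266, and up to 0.102 without any 1 of the BDL libraries). None of 5 tested endothelial genes passed edgeR or DESeq2, 1 had an unadjusted p under 0.05 and 1 passed without control replicate 1, at a summed 423.0 to 641.4 CPM in BDL and 406.0 to 568.1 CPM in control. The list for T and NK cells held 9 genes, of which 1 was tested. It was Il2rb, a cytokine receptor chain gene, and it rose, with 178, 469 and 158 reads in BDL livers against 0, 0 and 0 in control livers (edgeR adjusted p = 0.0212, and up to 0.0919 without any 1 of the BDL libraries). Of 9 listed cell cycle genes 2 were tested, and Mcm3, a DNA replication helicase gene, rose by 1.32 on the log2 scale (SE 0.36, edgeR adjusted p = 0.0394), a call lost in each fit without 1 library (up to 0.185). Birc5, a cell division gene, did not pass (edgeR adjusted p = 0.883), except without control replicate 3. The part of these cells in the reads of the 5 genes was not tested.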

How the data were processed

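Per the labels' protocols, fragmented liver RNA was enriched with an m6A antibody, and input RNA was set aside. Per the submitters' processing notes, bcl2fastq 2.17, fastp, Bowtie2 2.2.8 and HISAT2 were used, without their roles. How peaks were called, merged and counted, whether strand was used, and with which build and annotation, is not given in the sources used here. Per the file headers, the authors deposited, for merged peaks, the raw read count in each of 6 IP libraries and an RPM value, a score that matched each count over the library's reads in distinct peaks to within 5e-06. Coordinates are 1-based, in the table's own build, which it does not name. Its gene spans overlap those of GRCm38.p6 in RefSeq for 4975 of 4975 matched genes, and the promoters come from that build.

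A peak listed for several genes is 1 peak, so 8649 lines hold 7460 peaks. Library sizes are reads in distinct peaks. Gene values sum the peaks annotated to that gene alone (6474 peaks). Peaks and genes were filtered with filterByExpr, scaled with TMM separately for peaks and for genes, and fitted with edgeR (robust quasi-likelihood). Adjusted p-values are Benjamini-Hochberg over all tested features, with a threshold of 0.05. The fit was also run on simulated counts, and the outcome of that run is not reported here. R 4.3.3, edgeR 4.0.16 and DESeq2 1.42.0 were used. SE is the log2 change over the square root of F. Likeness used log2 CPM with a prior count of 2.

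Members and gene lists were chosen with earlier results of these data known. Named genes are, by rule, all members, and up to 4 genes of smallest p and all that passed in each epithelial list. The rule also names the nearest gene with a peak of its own on each side, and the 2 genes closest in pattern. Predicted genes (Gm, Rik) were left out of the named genes. Genes beyond the rule are named where they complete a count or are classical markers, chosen after their values were seen. Alternatives were DESeq2, its size factors within edgeR, library totals alone (no TMM), no filter, a filter of 50 reads per library in a group, a replicate block, each library left out, peaks of 75 bases or less left out, and shared peaks included. The input libraries were not analysed here, and a few listed genes are not reported here.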

Additional observations from a re-analysis of the deposited data

How the results depend on the processing

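No alternative turned the direction of a member's change. Without 1 library, the log2 change of Cldn4 was 6.22 to 7.15, of Ehf 4.85 to 5.21, of Cd24a 3.71 to 4.43 and of Cdh3 3.36 to 3.64. Cftr ranged from 4.42 to 14.24. The high end is the fit without control replicate 2, where control has no reads, so it depends on the prior count and is no bound. Library totals alone gave 5.35 for Ehf and 3.85 for Cdh3, and the replicate block 7.56 for Cftr. Of 7083 peaks, 649 passed, against 1169 with DESeq2 and 287 with the replicate block, and 155 to 611 without 1 library. Of 4306 genes, 635 passed, against 415 with the replicate block and 223 to 622 without 1 library. With library totals alone, 579 of 730 genes passing were higher, against 353 of 635 with TMM. That scaling put the median log2 change of all tested genes at 0.38, against 0.03 with TMM. Of the genes in the 6 epithelial lists, 6 rose, against 10 with DESeq2, 13 with library totals alone and 3 to 11 without 1 library. The 2 that fell were 1 with library totals alone and with the replicate block, and 1 to 2 without 1 library. Cdh1 turned to -0.022 with the replicate block, and ranged from -0.27 (BDL replicate 3 left out) to 0.23 without 1 library. Cldn3 turned to 0.25 with library totals alone, and ranged from -0.33 to 0.10 without 1 library, positive where BDL replicate 1 (0.07) or control replicate 3 was left out. The cause of these shifts was not tested. Samples of the same number correlated at 0.058, 0.011 and 0.020 in their deviations from the group means over 4306 genes, so the numbers were not taken as pairs. Motif matches were the same on the gene strand alone. Counts were low on the control side, where the 6 peaks held 0 to 427 reads per library, against 1664 to 48833 in BDL.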
